A study of Homo sapiens with 6 samples.

Results

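The proteasome genes of T3M4, a human cell line established from pancreatic cancer and labelled as pancreatic ductal adenocarcinoma, are described here at the level of messenger RNA, with and without METTL13 knockdown. They were taken by symbol as the genes named PSM followed by a letter from A to G and a number, plus POMP and NFE2L1, leaving out PSMB8 and PSMB9. This gave 46 of the 16617 genes in the authors' deposited table. They comprise 7 alpha and 8 beta subunits of the core particle, 6 ATPases, 3 scaffold and receptor subunits of the base, 8 lid subunits, 3 chaperones of the base, 5 assembly factors of the core, 5 activators or regulators, and the transcription factor NFE2L1. The cells had received either a control guide RNA (sgControl, genotype given as WT, 3 libraries) or a guide RNA against METTL13 (sgMETTL13, given as METTL13 knockdown, 3 libraries). The design says that both populations were treated alike, and the labels do not say whether either population is a single clone or whether the 3 libraries of a group came from separate cultures. METTL13 is a methyltransferase of the translation elongation factor eEF1A.

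The proteasome is the protease that degrades ubiquitin-tagged proteins in the cytosol and nucleus. Its barrel-shaped core particle is built from rings of alpha and beta subunits, and the beta rings carry the cutting sites. The regulatory particle at the end of the barrel has a base, whose ATPases unfold substrates, and a lid, which removes the ubiquitin chain. Dedicated chaperones help to build each part and mostly leave the finished particle. When proteasome activity falls short, the transcription factor NFE2L1 is cut free from the endoplasmic reticulum and raises the transcription of most subunit genes together. It does so through antioxidant response elements, DNA sites that it shares with its relative NFE2L2 (NRF2), and it binds them as a partner of the small MAF proteins.

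The authors' deposited table gives 1 average per group and no value per library, so uncertainty is shown through an implied standard error. That error is the one for which a two-sided normal test of the deposited log2 fold change would return the deposited p-value, and it sets a 95% interval. It is the error implied by the authors' test, not a spread measured between the libraries, and it takes the authors' scaling of the groups as given. Differences between these libraries may be only technical. The average estimated read counts of the authors' deposited table had a sum of 15240866 for sgControl and 15247500 for sgMETTL13. The proteasome genes averaged from 226 (PSMB10) to 6105 reads (NFE2L1) over both groups. All 46 lay above the median of 205 reads over all genes. METTL13 fell from 39.9 to 5.63 TPM (a share of all transcripts, corrected for length) in the authors' deposited table, with a log2 fold change of -2.78 and an adjusted p of 2.5e-127. Of 6 epithelial and ductal markers, 6 were measured, and they summed to 4739 TPM in sgControl and 4602 TPM in sgMETTL13 by the authors' deposited table. The 2 measured acinar markers summed to 0.81 and 1.96 TPM and the 3 measured fibroblast markers to 17.1 and 17.3 TPM there. The 1 measured endocrine marker, CHGA, was at 0 and 0.083 TPM, and the 2 endothelial markers summed to 1.82 and 1.22 TPM. Of the 2 measured leukocyte markers CD68 was at 40.9 and 44.1 TPM and CD79A at 0.197 and 0.2 TPM. The leukocyte markers PTPRC and CD3E were absent from the authors' deposited table. None of the 16 measured markers passed the test.

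None of the 46 proteasome genes passed the test. At an adjusted p under 0.05, by the authors' deposited table, 0 were higher and 0 lower in sgMETTL13. Of all genes 3.80% were called (2.73% higher and 1.08% lower), and of the 8309 abundant genes, those with average reads no lower than the median, 7.04%. The smallest adjusted p among the 46 was 0.151, for PSMD8. At an unadjusted p under 0.05 there were 5 proteasome genes by the authors' deposited table, 4 higher (PSMD8, PSMD13, PSMB3 and PSMF1) and 1 lower (PSMA4), or 10.9%. Over the 7631 genes within the same range of reads that share was 20.6% (13.1% higher and 7.47% lower). The log2 fold changes of the 46 genes lay between -0.18 and 0.16, with a median of 0.024 and quartiles of -0.043 and 0.079. In the genes of the same read range the median was 0.0085 and the quartiles were -0.080 and 0.098. The proteasome genes thus had the narrower middle spread, a description that was not tested. The 2 sets share a range of reads but are not matched within it. The proteasome genes had more reads (median 1235 against 732.5) and a smaller median implied standard error (0.077 against 0.090, defined above).

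**Figure D1:**
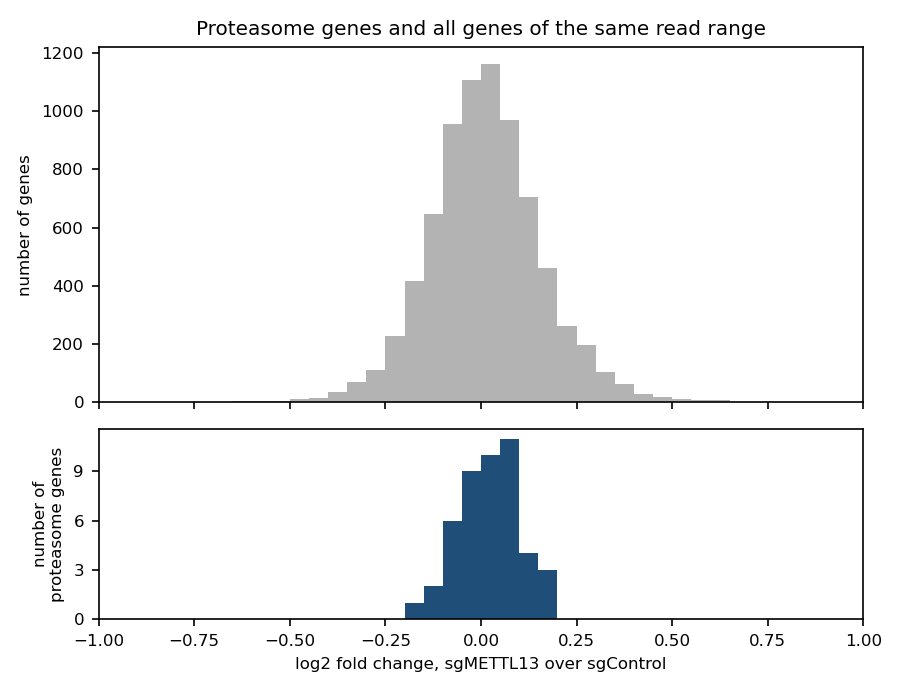
Number of genes (vertical axes) by log2 fold change of sgMETTL13 over sgControl (horizontal axis, bins of equal width) for the 7631 genes in the read range of the proteasome genes (top) and for the 46 proteasome genes (bottom). The proteasome genes all lie between -0.18 and 0.16, and 4 genes of the upper panel lie beyond the axis.

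The precision was enough to bound these differences. The median implied standard error of the 46 genes was 0.077 on the log2 scale, from 0.050 for NFE2L1 to 0.138 for PSMB10. The interval lay below the size of the median called rise of all genes (log2 0.31, 1.24-fold) for 45 of 46 genes, the exception being PSMG3. It lay above the median called fall (log2 -0.38, 0.766-fold) for 46 of 46. A rise or a fall of 0.5 on the log2 scale was outside the interval of every one of the 46 genes, and a rise of 0.25 was outside for 35 and a fall of 0.25 for 40.

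**Figure D2:**
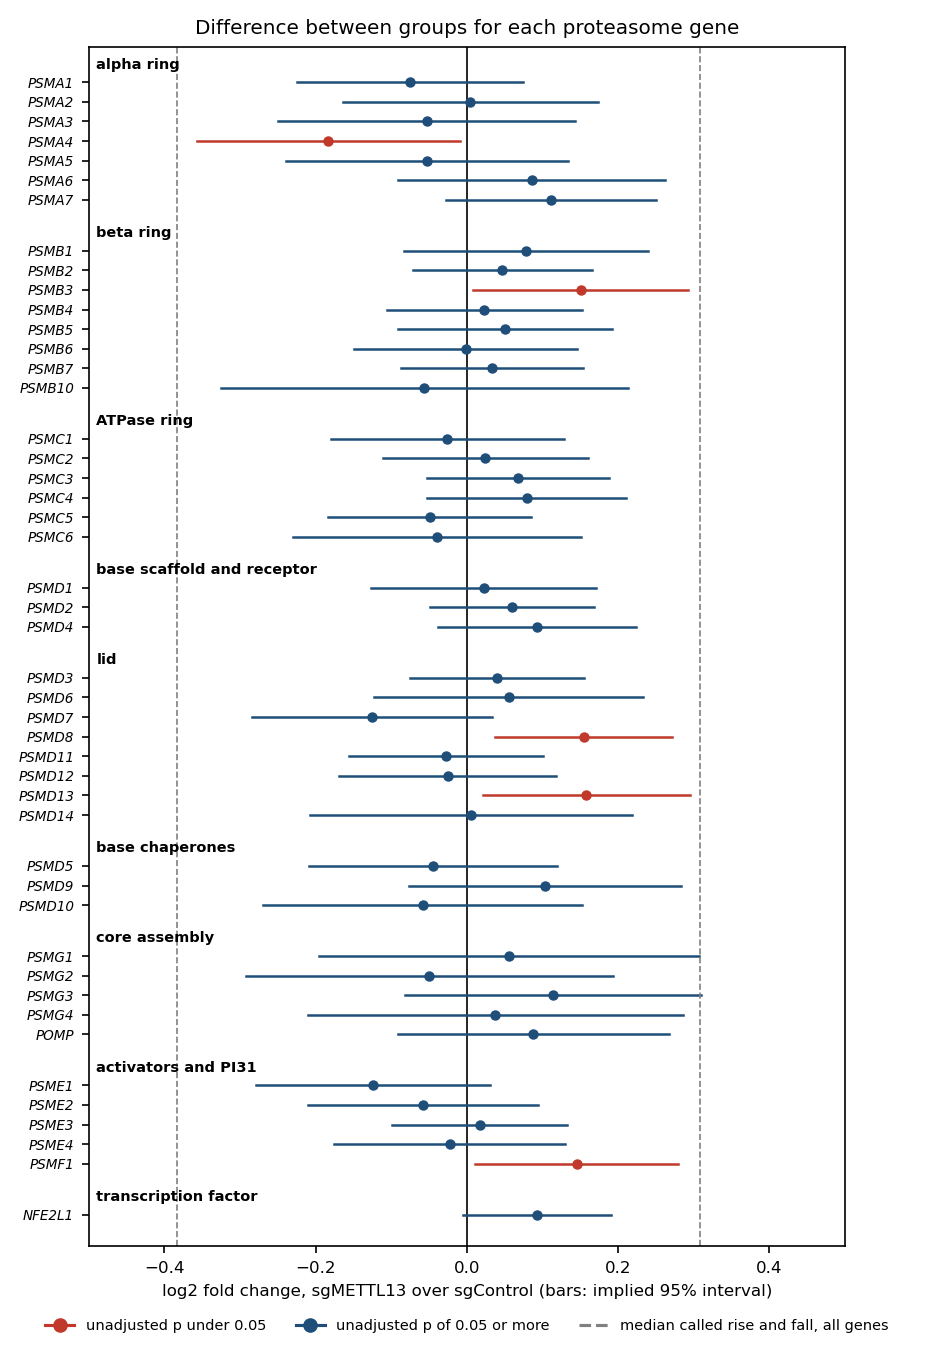
Log2 fold change of sgMETTL13 over sgControl (horizontal axis, points) with its implied 95% interval (bars) for the 46 proteasome genes by subcomplex. Dashed lines mark the median called rise and fall of all genes. The 5 genes with an unadjusted p under 0.05 are in red, PSMA4 below 0 and PSMB3, PSMD8, PSMD13 and PSMF1 above 0.

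Transcript levels, which TPM makes comparable between genes by dividing by length, differed far more between subunits than between groups. The 46 genes summed to 5847 TPM in sgControl and 5700 TPM in sgMETTL13 by the authors' deposited table, or 0.585% and 0.570% of all TPM. The highest was PSMB4 at 412 TPM and the lowest PSME4 at 23.6 TPM in sgControl, a ratio of 17.5 in the authors' deposited table. Subunits that the finished particle holds in equal number also differed. Across the alpha ring the levels spanned 9.38 times, from PSMA5 at 23.8 TPM to PSMA7 at 223 TPM, in sgControl in the authors' deposited table. Across the ATPase ring they spanned 4.87 times, from PSMC6 at 42.3 TPM to PSMC3 at 206 TPM, in the authors' deposited table. These spans depend on the transcript length that TPM divides by. In sgControl PSMA5 averaged 695 reads, more than the 583 reads of PSMA3, which was at 81.6 TPM. The order was almost the same in both groups. Of the 46 genes 21 held the same rank by TPM and the largest shift was 4 places, that of PSME1 from rank 11 to rank 15. Between the groups the log2 TPM of the 46 genes had a Pearson r of 0.998 and a Spearman rho of 0.996, a description over genes that share the same 2 sets of libraries.

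**Figure D3:**
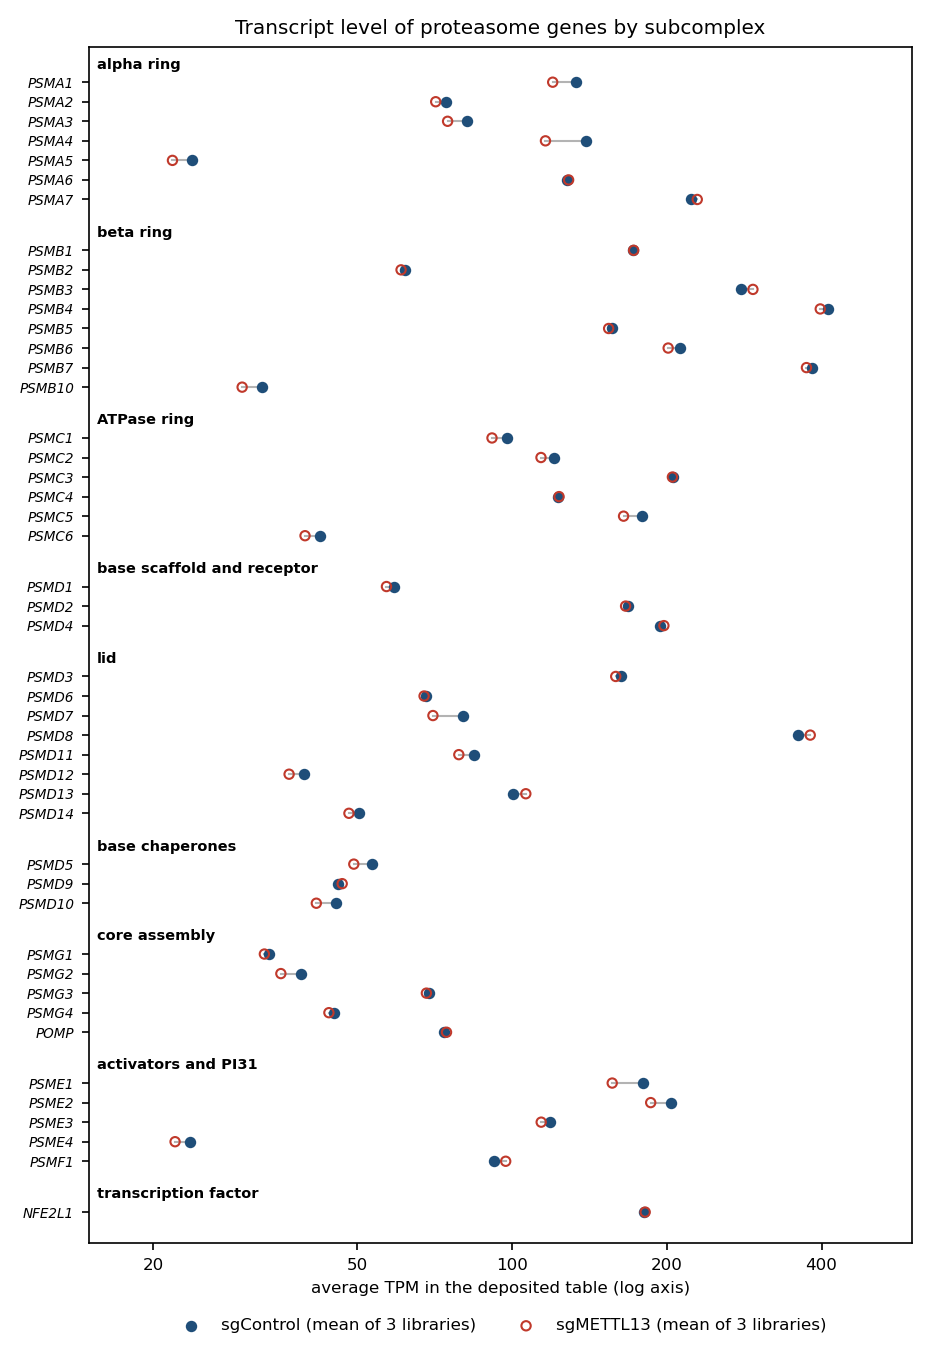
Average TPM in the authors' deposited table (horizontal log axis) for each of the 46 proteasome genes, by subcomplex, in sgControl (filled) and sgMETTL13 (open), each the authors' mean of 3 libraries. PSMB4, PSMB7 and PSMD8 are the most abundant in both groups, and the 2 points of a gene lie close together compared with the distance between genes.

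The alpha subunits form the outer rings of the core particle and the gate through which substrates enter. PSMA4 had the lowest log2 fold change of all 46 genes. It averaged 1269 reads in sgControl and 1078 in sgMETTL13 by the authors' deposited table, or 139 and 116 TPM. Its log2 fold change was -0.18 (implied 95% interval -0.36 to -0.0092), with an unadjusted p of 0.0391 and an adjusted p of 0.352 in the authors' deposited table. PSMA4 lies at chr15:78540405-78552419, plus strand (GRCh38, GENCODE 29), and does not share exons with another gene of the table. The other 6 alpha subunits lay between -0.075 for PSMA1 and 0.11 for PSMA7 in the authors' deposited table, and their intervals all included 0. PSMA7 went from 223 to 229 TPM and PSMA1 from 133 to 120 TPM in the authors' deposited table. The median over the 7 subunits was -0.053, and their summed TPM was 803 in sgControl and 762 in sgMETTL13.

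The beta subunits include the 3 catalytic sites of the constitutive particle. PSMB5 carries the chymotrypsin-like, PSMB6 the caspase-like and PSMB7 the trypsin-like activity. PSMB5 averaged 156 TPM in sgControl and 154 TPM in sgMETTL13 by the authors' deposited table, with a log2 fold change of 0.050 (-0.091 to 0.19). PSMB6 averaged 212 and 201 TPM there, with -0.0015 (-0.15 to 0.15). PSMB7 averaged 384 and 374 TPM there, with 0.034 (-0.086 to 0.15). None of the catalytic subunits thus showed a difference beyond its error, and for each of the 3 a change of 0.25 on the log2 scale in either direction was outside the interval. Among the structural beta subunits PSMB3 had the highest value. PSMB3 averaged 1549 reads in sgControl and 1658 in sgMETTL13 by the authors' deposited table, or 279 and 294 TPM. The log2 fold change of PSMB3 was 0.15 (0.0085 to 0.29), with an unadjusted p of 0.0378 and an adjusted p of 0.345 in the authors' deposited table. PSMB3 lies at chr17:38752736-38764231, plus strand (GRCh38, GENCODE 29). PSMB1, PSMB2 and PSMB4 had log2 fold changes of 0.079, 0.047 and 0.023 by the authors' deposited table, and none of their intervals excluded 0.

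PSMB10, the beta subunit that replaces PSMB7 in the interferon-induced immunoproteasome, was the least abundant beta subunit at 32.6 TPM in sgControl and 29.8 TPM in sgMETTL13 by the authors' deposited table. Its log2 fold change was -0.056 (-0.33 to 0.21), the widest interval of the 46 genes. The other inducible subunits, which are not among the 46, were PSMB8 at -0.092 (-0.33 to 0.14) and PSMB9 at -0.55 (-0.90 to -0.21) in the authors' deposited table. PSMB9 passed the test with an adjusted p of 0.0454 there, on 153 reads in sgControl and 101 in sgMETTL13, and 20.3 and 13.2 TPM. At a threshold of 0.01 it was not called, and its reads are below the median of all genes. Whether PSMB9 differs from PSMB8 or PSMB10 was not tested.

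The 6 ATPases, which form the ring that unfolds substrates and threads them into the core, had log2 fold changes between -0.049 and 0.079 in the authors' deposited table. PSMC4 (0.079) and PSMC3 (0.068) had the highest values and PSMC5 (-0.049) and PSMC6 (-0.040) the lowest in the authors' deposited table. All 6 intervals included 0, and the smallest adjusted p was 0.799. The scaffold subunits PSMD1 and PSMD2, which dock ubiquitin shuttles, stood at 0.022 and 0.059 in the authors' deposited table, and the ubiquitin receptor PSMD4 at 0.093 (-0.037 to 0.22). The TPM of these 3 base subunits summed to 420.5 in sgControl and 420.5 in sgMETTL13, so the abundance of this group was the same to within 1 TPM.

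The lid held the 2 highest values. PSMD13, a structural lid subunit, averaged 1301 reads in sgControl and 1401 in sgMETTL13 by the authors' deposited table, or 100.5 and 106 TPM. Its log2 fold change was 0.16 (0.021 to 0.30), with an unadjusted p of 0.0236 and an adjusted p of 0.261 in the authors' deposited table. PSMD13 lies at chr11:236546-252984, plus strand (GRCh38, GENCODE 29), and shares 316 exon bases with SIRT3 on the opposite strand. The sources used here do not give whether the counting used strand, so reads from the shared bases cannot be assigned. PSMD8, the subunit that joins the lid last, averaged 4082 and 4382 reads in the authors' deposited table, or 359 and 380.3 TPM. The log2 fold change of PSMD8 was 0.15 (0.037 to 0.27), with an unadjusted p of 0.00996 and an adjusted p of 0.151 in the authors' deposited table. PSMD8 lies at chr19:38374536-38383824, plus strand (GRCh38, GENCODE 29). Both intervals excluded 0, and neither gene passed once the p-values were adjusted over all genes.

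In the same complex PSMD7, the inactive partner of the deubiquitinase PSMD14, had a value below 0. PSMD7 averaged 996 reads in sgControl and 881 in sgMETTL13 by the authors' deposited table, or 80.4 and 70.1 TPM. The log2 fold change of PSMD7 was -0.13 (-0.28 to 0.034), with an adjusted p of 0.622 in the authors' deposited table. PSMD7 lies at chr16:74296775-74306288, plus strand (GRCh38, GENCODE 29). PSMD14, which removes the ubiquitin chain, stood at 0.0055 (-0.21 to 0.22) in the authors' deposited table. PSMD3, PSMD6, PSMD11 and PSMD12 had log2 fold changes of 0.040, 0.055, -0.028 and -0.025 there. The 8 lid genes summed to 945 TPM in sgControl and 947 TPM in sgMETTL13, and 5 of the 8 had a log2 fold change above 0.

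Assembly factors were less abundant than most subunits and also showed no call. The chaperones of the base, PSMD5, PSMD9 and PSMD10 (gankyrin), had log2 fold changes of -0.045, 0.10 and -0.058 by the authors' deposited table, with adjusted p values from 0.822 to 0.968. PSMG1 and PSMG2, which pair to start the alpha ring, stood at 0.056 (-0.20 to 0.31) and -0.049 (-0.29 to 0.19) in the authors' deposited table. PSMG3 and PSMG4, which form the other chaperone pair of that ring, stood at 0.11 (-0.082 to 0.31) and 0.038 (-0.21 to 0.29) there. POMP, which guides the beta subunits and is the first substrate of the finished core, went from 73.7 to 74.5 TPM in the authors' deposited table, with a log2 fold change of 0.088 (-0.092 to 0.27). The 8 assembly factors had a median implied standard error of 0.104, against 0.069 for the 17 subunits of the regulatory particle, so a change was harder to detect among them.

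Activators and regulators bind the end of the core in place of, or together with, the regulatory particle. PSME1 and PSME2, the interferon-inducible subunits of the PA28 activator, both had values below 0. PSME1 averaged 1300 reads in sgControl and 1149 in sgMETTL13 by the authors' deposited table, or 179 and 157 TPM. The log2 fold change of PSME1 was -0.12 (-0.28 to 0.030), with an adjusted p of 0.601 in the authors' deposited table. PSME1 lies at chr14:24136158-24138967, plus strand (GRCh38, GENCODE 29). PSME2 averaged 203 and 186 TPM in the authors' deposited table, with a log2 fold change of -0.057 (-0.21 to 0.095). The nuclear activators PSME3 and PSME4 stood at 0.017 and -0.023 in the authors' deposited table. PSMF1, the core-binding protein PI31, averaged 2364 and 2525 reads there, with a log2 fold change of 0.15 (0.011 to 0.28) and an adjusted p of 0.325.

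NFE2L1, the transcription factor of the subunit genes, was the most deeply counted of the 46. It averaged 6017 reads in sgControl and 6192 in sgMETTL13 by the authors' deposited table, or 180.5 and 181.5 TPM. Its log2 fold change was 0.093 (-0.0055 to 0.19), with an unadjusted p of 0.0641 and an adjusted p of 0.459 in the authors' deposited table. NFE2L1 is controlled mainly by glycan removal, cleavage and degradation of the protein, and its messenger RNA does not report that step.

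The sign of values this small depended on how the groups were scaled. The deposited log2 fold change was higher by 0.052 than the log2 ratio of the deposited average reads. As deposited by the authors, 28 of the 46 log2 fold changes were above 0 and 18 below. By the ratio of average reads 17 were above 0 and 29 below (median -0.028), and by the ratio of average TPM 12 were above 0 and 34 below (median -0.050). The abundant genes shifted in the same way, with medians of 0.011, -0.041 and -0.061, and the median of the proteasome genes was the higher of the pair under each scale. PSMA4, PSMD7 and PSME1 were below 0 and PSMD8, PSMD13, PSMB3 and PSMF1 above 0 under all 3 scales. These genes were named for their extreme values. The shift between the scales was smaller than those values, so their signs were bound to hold.

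Log2 fold changes also followed the GC content of transcripts, in proteasome genes as in others. Over the 46 genes GC content and log2 fold change had a Pearson r of 0.36 and a Spearman rho of 0.37. Over the 8289 abundant genes with transcript values these were 0.33 and 0.37, and both are descriptions over genes of the same libraries. Of the 23 proteasome genes below the median GC content of 48.3% there were 10 with a value above 0 (median -0.025), and of the other 23 there were 18 (median 0.059). With a smooth trend in GC content and length removed over all genes, the medians of these 2 groups were 0.0068 and 0.013, and 24 of the 46 values were above 0. The values then ran from -0.19 for PSMA4 to 0.16 for PSMF1, and 0 of the 46 genes passed the test, while 2.70% of genes with transcript values did. PSMD8 moved from 0.15 to 0.080 and PSMB3 from 0.15 to 0.076 in that setting.

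**Figure D4:**
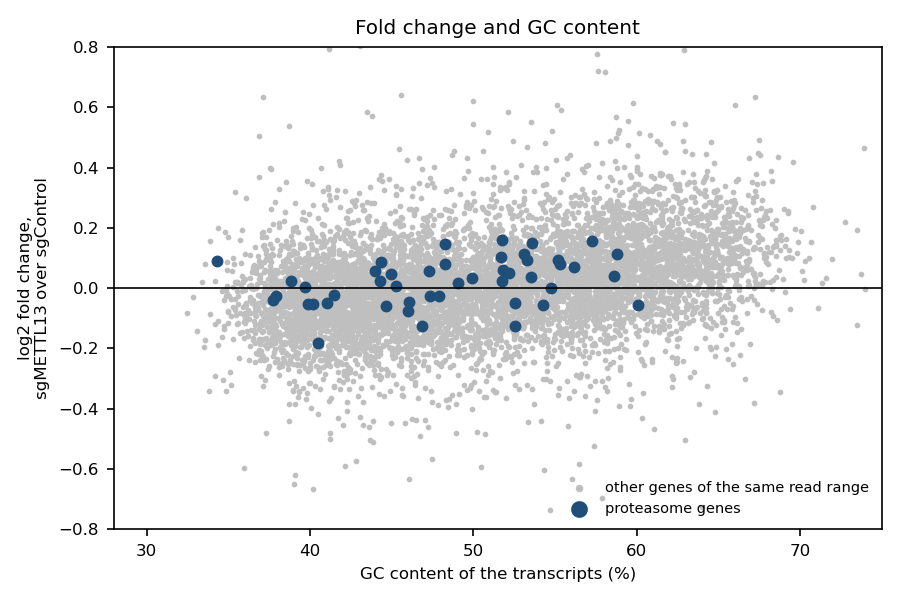
Log2 fold change of sgMETTL13 over sgControl (vertical axis) against the GC content of the transcripts in percent (horizontal axis) for the 46 proteasome genes (blue) and for other genes of the same read range (grey). The proteasome genes of high GC content lie mostly above 0, and 10 grey genes lie outside the axes.

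Reads can be divided between related or overlapping genes. Of the 46 genes 4 (PSMB2, PSMC2, PSMC6 and PSMD12) had an average read count that is no multiple of 1 read over 3 libraries, which whole reads cannot give, and their log2 fold changes lay between -0.040 and 0.047. A further 11 genes share exon bases with another gene of the table, on the opposite strand in all but PSMD9. The 35 genes without such an overlap had a median log2 fold change of 0.040 and the 11 with one -0.023, and 0 of either passed the test.

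Promoter sequences were searched for the letters of the site that NFE2L1 and NRF2 use. RefSeq windows (GRCh38.p14) were matched for 40 of the 46 genes, and the 250 bases before the RefSeq start farthest upstream in that set of windows were searched on both strands for TGACNNNGC, the core of the antioxidant response element. By GENCODE 29 the window lies wholly inside the gene for 14 of the 40, PSME2, PSMG1, PSMG2 and PSMG4 among them, because that annotation has a start farther upstream. A match was found for 10 of 40 genes (25%), against 11.7% of the 13104 table genes with a window and 11.1% of all 27305 windows. These shares were not tested or corrected for GC content. The median GC content was 62.2% in the windows of the proteasome genes, against 57.6% in all windows. The matched sites follow, 5′ to 3′ on the strand of the gene with the core in capitals (in its reverse complement where it lies on the other strand), since such sites are how NFE2L1 is known to act on subunit genes.
PSMB3 (chr17:38752627-38752655, plus): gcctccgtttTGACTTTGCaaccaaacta
PSMD3 (chr17:39980760-39980788, plus): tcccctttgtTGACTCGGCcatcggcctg
PSMD5 (chr9:120843038-120843066, minus): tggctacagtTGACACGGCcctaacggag
PSMD9 (chr12:121888678-121888706, plus): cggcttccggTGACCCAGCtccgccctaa
PSMD9 (chr12:121888631-121888659, plus, core on the other strand): cgctactcctGCCGGGTCAccacaggcgc
PSMD12 (chr17:67366724-67366752, minus): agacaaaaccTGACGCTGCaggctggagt
PSME1 (chr14:24136098-24136126, plus): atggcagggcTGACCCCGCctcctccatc
PSME2 (chr14:24146767-24146795, minus): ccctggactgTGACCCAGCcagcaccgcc
PSME4 (chr2:53971009-53971037, minus, core on the other strand): cccggcggctGCAGCGTCAccagcagagc
PSMG1 (chr21:39183616-39183644, minus): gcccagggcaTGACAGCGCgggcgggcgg
PSMG2 (chr18:12658689-12658717, plus): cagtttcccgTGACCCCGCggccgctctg

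By GENCODE 29 the printed stretches of PSMD5, PSME2, PSME4, PSMG1 and PSMG2 lie in exons, counted for any gene on either strand. Those of the other 5 genes lie outside exons. For PSMD5 and PSME4 the stretch lies outside the span of the gene itself, so the exon is that of another gene. The 10 genes with a match had a median log2 fold change of -0.024, from -0.12 for PSME1 to 0.15 for PSMB3, and 4 of the 10 were above 0. The 30 genes without a match had a median of 0.023, from -0.18 for PSMA4 to 0.16 for PSMD13, and 19 of the 30 were above 0. Whether the 10 and the 30 genes differ was not tested. A match of letters is not a bound site, and the absence of a match says only that these letters are not in the window.

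A second search, chosen after the values were seen, was made for the core of the interferon-stimulated response element (GAAA, any 2 bases, GAAA; both strands), because PSMB10, PSME1 and PSME2 are known to respond to interferon. It matched 5 of 40 proteasome genes (12.5%), against 2.56% of the table genes with a window. PSMB10 and PSME2, for which the search was made, are among the 5. These shares were not tested, and the choice of the search favours a higher share in the proteasome genes. The sites are printed in the same way, with the core in capitals. The 3 last have the same 10 core letters and lie in exons of GENCODE 29, counted for any gene on either strand. The first pair lies outside exons.
PSMA4 (chr15:78540155-78540184, plus): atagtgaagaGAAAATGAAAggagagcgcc
PSMB4 (chr1:151399495-151399524, plus): tcgtctacagGAAAAAGAAAgaaatgacac
PSMB10 (chr16:67936852-67936881, minus): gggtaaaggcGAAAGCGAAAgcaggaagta
PSME2 (chr14:24146619-24146648, minus): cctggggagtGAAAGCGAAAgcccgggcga
PSMG4 (chr6:3258904-3258933, plus): ttccggggccGAAAGCGAAAgcgcgctcgg

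These 5 genes had log2 fold changes of -0.18 (PSMA4), 0.023 (PSMB4), -0.056 (PSMB10), -0.057 (PSME2) and 0.038 (PSMG4) by the authors' deposited table, 3 below 0 and 2 above. PSME1, 1 of the genes for which the search was made, had no match. PSMA4 had the lowest value of all 46 genes, with an adjusted p of 0.352, and is shown in full for that reason. Whether the core has to do with its value was not tested. In PSMA4 the core lies at 240 to 231 bases before the start. Its window of 250 bases (chr15:78540155-78540404, GRCh38.p14, plus strand), none of which GENCODE 29 annotates as exon, reads as follows with the core in capitals.
PSMA4 upstream window: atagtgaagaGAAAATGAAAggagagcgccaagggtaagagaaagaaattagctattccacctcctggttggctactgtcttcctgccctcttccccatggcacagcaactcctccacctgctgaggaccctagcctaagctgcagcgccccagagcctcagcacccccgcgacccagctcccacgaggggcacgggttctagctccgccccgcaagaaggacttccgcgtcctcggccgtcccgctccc

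Around the 46 genes, 47 measured genes of proteasome partners, NFE2L1 processing, ubiquitin supply and shuttle factors gave 4 higher and 1 lower in the authors' deposited table, beside the 2.73% and 1.08% of all genes called higher and lower. Most of the 47 are abundant genes, and of all abundant genes 7.04% were called in either direction. Whether the partner genes differ from that share was not tested. Among subunits and bound factors 1 of 14 was higher and 1 lower. AKIRIN2, which carries proteasomes into the nucleus, rose from 73.1 to 90.5 TPM in the authors' deposited table, with a log2 fold change of 0.38 (0.24 to 0.53) and an adjusted p of 2.95e-05. The 1 lower was PSMB9, described above. The remaining subunits of the regulatory particle, ADRM1 at 0.14 and SEM1 at 0.18, did not pass in the authors' deposited table (adjusted p 0.287 and 0.496).

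Of 14 genes listed around NFE2L1 (factors that process or degrade it, its small MAF partners and its relatives NFE2L2 and NFE2L3), 2 were higher and 0 lower in the authors' deposited table, both small MAF proteins. Of all genes 2.73% were called higher and 1.08% lower, and of the abundant genes 7.04% were called in either direction. Whether this list differs from those shares was not tested. MAFF rose from 82.9 to 105 TPM (log2 fold change 0.40, 0.24 to 0.57, adjusted p 0.000195) and MAFG from 52.4 to 59.3 TPM (0.25, 0.13 to 0.38, adjusted p 0.00458) in the authors' deposited table. The third small MAF gene, MAFK, stood at 0.23 (0.074 to 0.39) with an adjusted p of 0.0841 there. MAFK passed where only the abundant genes entered the adjustment. Once the GC and length trend was taken out, MAFK stood at 0.145 (adjusted p 0.579) and did not pass. MAFF at 0.33 (adjusted p 0.00669) and MAFG at 0.21 (adjusted p 0.0407) still passed after that step. NFE2L2 stood at 0.048 (-0.081 to 0.18) and NFE2L3, another member of the factor family, at -0.45 (-0.75 to -0.15) with an adjusted p of 0.0784, on 210.3 and 149 reads, in the authors' deposited table. The enzymes that release NFE2L1, NGLY1 and the protease DDI2, stood at -0.093 and -0.079, and the extraction ATPase VCP at 0.095, in the authors' deposited table, and none passed.

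Of 14 genes for ubiquitin and the enzymes that load it, 0 were higher and 0 lower in the authors' deposited table, and 2 had an unadjusted p under 0.05, both higher. That is 14.3% of the 14, against 12.4% of all genes and the 20.6% in the read range of the proteasome genes. These were the ubiquitin-conjugating enzymes UBE2A (log2 fold change 0.18, adjusted p 0.0900) and UBE2S (0.12, adjusted p 0.391), named after their values were seen. UBE2A also passed with the adjustment over the abundant genes. It did not pass once the GC and length trend was taken out (0.17, adjusted p 0.151). The polyubiquitin gene UBB, which stress induces, stood at 0.042 (-0.075 to 0.16) in the authors' deposited table. Of 5 measured shuttle factors, SQSTM1 (p62), which also delivers ubiquitinated cargo to autophagy, rose from 1039 to 1175 TPM in the authors' deposited table, with a log2 fold change of 0.25 (0.16 to 0.34) and an adjusted p of 3.62e-06. The shuttle factors RAD23B, UBQLN1, UBQLN2 and UBQLN4 lay between 0.0084 and 0.097 there and did not pass.

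**Figure D5:**
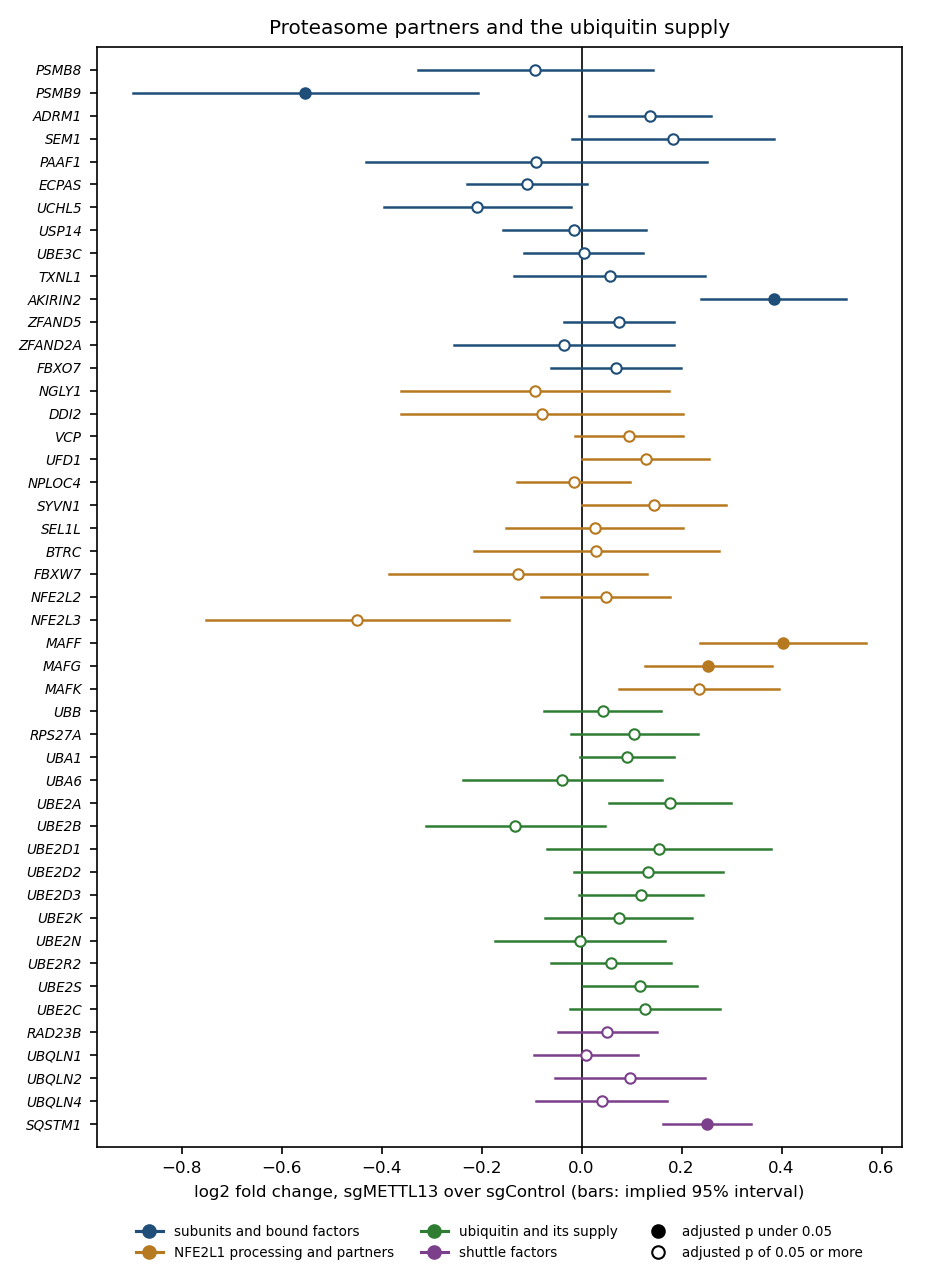
Log2 fold change of sgMETTL13 over sgControl (horizontal axis) with its implied 95% interval (bars) for 47 genes of proteasome partners, NFE2L1 processing, ubiquitin supply and shuttle factors, coloured by list. Filled points passed an adjusted p of 0.05, and these are AKIRIN2, MAFF, MAFG and SQSTM1 above 0 and PSMB9 below 0.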

How the data were processed

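RNA was extracted with TRIzol from T3M4 cells and sequenced by a company, per the labels' protocols. RSEM 1.2.12, DESeq2 (without a version), Bowtie2 2.2.5 and HISAT2 2.0.4 were used with the builds hg38 and GRCh38.p12, per the submitters' processing notes. What each was used for is not given in the sources here. Per the file headers, the 1 table deposited by the authors holds group averages of TPM, FPKM (not used) and read counts, which are estimated counts (expected counts) because for 21.4% of genes whole reads in 3 libraries cannot give the average (tolerance 0.005). It also holds the authors' log2 fold change, p-value and q-value. The q-value, within 1.22% of a Benjamini-Hochberg adjustment, is called the adjusted p and was used at 0.05. The deposited averages allow no count model, so an edgeR fit, set out in case the table held counts per library, could not be made, and the depth of single libraries is unknown.

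The 46 genes, the gene lists and the motifs were chosen with earlier results of these data known. All 46 genes may be named; full values are given for the 3 highest and the 3 lowest log2 fold changes and for genes with special roles. Partner genes are named where called or where they are subunits or NRF-family factors, and others after their values were seen. Some genes of these lists are not reported here and stay out of the counts. For 16211 genes (97.6%), all 46 included, Entrez IDs gave GC content and length as medians over the basic transcripts of GENCODE 29. Their trend was fitted over all these genes with natural cubic splines (4 degrees of freedom each, weights of 1 over the implied standard error) and tested on simulated data. Promoter windows are from RefSeq (GRCh38.p14). Tools were Python 3.11.15, patsy 1.0.2, scipy 1.17.1, numpy 2.4.6, matplotlib 3.10.9 and pandas 2.3.3.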

Additional observations from a re-analysis of the deposited data

How the results depend on the processing

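None of the 46 proteasome genes was called, higher or lower, at thresholds of 0.01 or 0.1, with the recomputed Benjamini-Hochberg or the Bonferroni adjustment, among the abundant genes alone, with centred fold changes or after removal of the trend in GC content and length. Their smallest adjusted p ranged from 0.0838 (PSMD8, among the abundant genes) to 1.0 (Bonferroni). The median log2 fold change ranged from -0.050 (ratio of average TPM) to 0.024 (as deposited), so its sign changed. The 5 called partner genes became 3 under Bonferroni (AKIRIN2, MAFF and SQSTM1) and 8 at a threshold of 0.1 (MAFK, NFE2L3 and UBE2A added). Among the abundant genes 6 were called: MAFK and UBE2A were added, and PSMB9, with reads below that minimum, was not tested. No paired analysis was possible because the table holds group averages, and for the same reason no replicate could be left out.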

Other observations

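The ratio of average TPM and the ratio of average reads differed by a common shift (median -0.022 on the log2 scale over the abundant genes). Relative to that shift PSMG3 differed by -0.054 on the log2 scale, a larger difference in size than in 94.7% of abundant genes. PSMC2 differed by -0.037, larger than in 90.6%. In PSMG3 the reads went from 466 to 487 while the TPM went from 68.7 to 68.1, both in the authors' deposited table. In PSMC2 the reads went from 2171 to 2130 and the TPM from 121 to 114 there. TPM divides by an estimated transcript length, and the lengths used in each group are not analysed here.

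The CCAAT box (CCAAT, both strands, which can overlap) was in the upstream window of 17 of 40 proteasome genes (42.5%), against 34.7% of table genes. Those 17 had a median log2 fold change of 0.025 with 12 above 0, and the other 23 had -0.023 with 11 above 0. Neither the shares nor the difference between the 17 and the 23 genes was tested. The signs of values this small depend on how the groups are scaled, as described above. The upstream windows of the proteasome genes had a median GC content of 62.2%, against 57.6% of all windows.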
